A study of Bos taurus with 28 samples.

Results

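Complement is a cascade of blood and tissue proteins that marks microbes and damaged cells. In the classical pathway C1q binds a target and switches on the protease C1r, which activates the protease C1s, and C1s cleaves C4. In the alternative pathway factor B joins deposited C3 to form the protease that cleaves more C3. C1 inhibitor blocks C1r and C1s, and factor I cuts the active fragments of C3 and C4. Complement proteins occur in bovine milk and are part of the udder's defence.

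The 9 complement genes were CFI, CFB, C3, C1QA, C1QB, C1S, C1R, C4A and SERPING1, represented by every probe set with exactly 1 of these symbols in the platform annotation. That gave 12 of the 24016 probe sets tested, 3 for C3, 2 for SERPING1 and 1 for each other gene, standing for 9 of the 9155 genes with a probe set of 1 symbol. They were measured in mammary biopsies of 28 Holstein-Friesian cows in mid-lactation on a control diet, each cow on its own Affymetrix Bovine Genome Array. The DGAT1 genotype (lysine, K, or alanine, A, at a variable residue of an enzyme of triacylglycerol synthesis) was KK in 4 cows, KA in 13 and AA in 11. The description sets the AA cows AA 2 and AA 9, whose array titles end in 33 and 43, beside the other 26 arrays, and then turns to genotype. The genes were selected on earlier results of these arrays, with the values of AA 2 and AA 9 against the rest in view, so those values are a description with no test. Values are log2 differences from an unstated baseline per probe set, so levels of different genes cannot be compared.

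Over the whole table, AA 2 and AA 9 were unlike the rest. The spread of an array's values (SD across all probe sets) reached 0.86 for AA 2 and 0.78 for AA 9, while no other array passed 0.35. Both arrays lay above all 26 others in 18.4% of probe sets and below all of them in 17.7%. Of 10 markers of secretory epithelium (caseins, lactalbumin and milk fat genes) both arrays lay below the others in 9, and the mean of the list was -1.60 (AA 2) and -2.22 (AA 9), against -0.26 to 0.11. Fibroblast markers averaged 1.15 and 1.56 there, against -0.50 to 0.43, with 8 of 10 above all others. Keratin and junction genes of luminal epithelium averaged 1.21 and 1.34, against -0.61 to 0.50, with 5 of 7 above. Of all 9155 genes, averaged over probe sets as in these lists, 21.1% lay above and 17.9% below. In tissue of mixed cells, fewer cells of a type and less RNA per cell cannot be told apart. The part of these shifts in the complement values was not tested.

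In AA 2 and AA 9 the regulator CFI and the C1 proteases C1S and C1R were above every other gland. C4A lay among the others, as did C3 except in its first probe set, where AA 2 was the lowest array. Both arrays were above all 26 others in 5 of the 12 complement probe sets, against 18.4% of all probe sets, and below them in 0, against 17.7%. The 5 belonged to CFI, C1S, C1R, C1QB and SERPING1. Beside the other 9 AA cows alone 7 were above, against 22.5% of all probe sets, and 22.6% of all lay below. Nothing is read from this count, since these values chose the genes. After quantile normalization, which gives each array the same spread, 1 of the 12 was outside the others, CFI, against 4.39% of all probe sets in either direction.

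**Figure D1:**
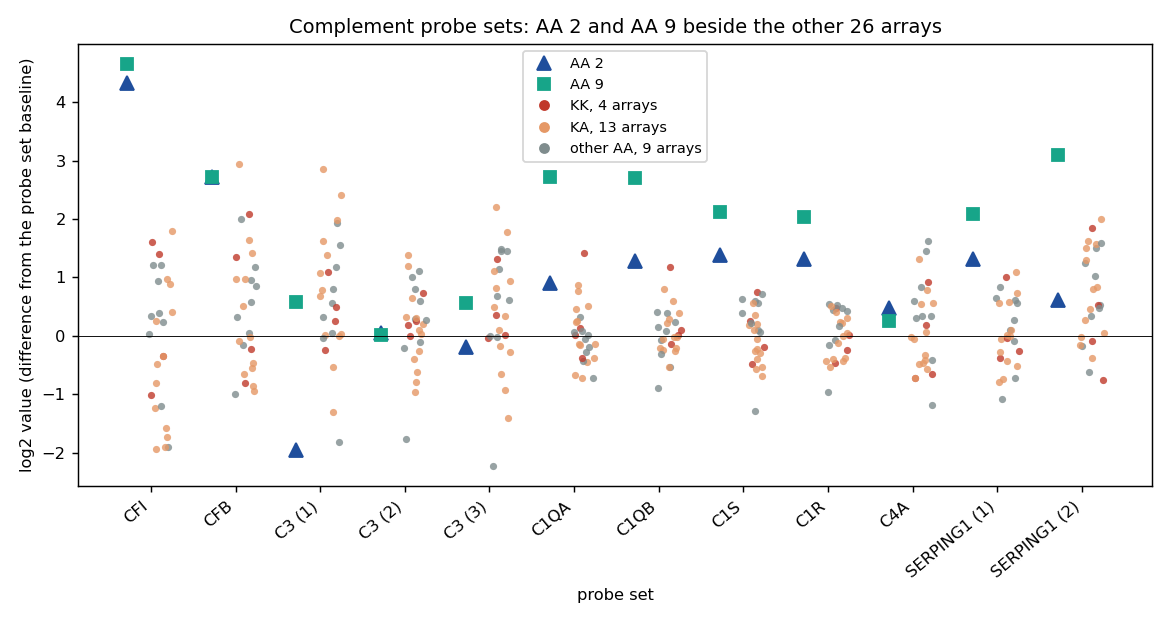
Log2 values (difference from the probe set baseline, y axis) of the 12 complement probe sets (x axis). The triangle is AA 2, the square AA 9, and the circles are the other 26 arrays coloured by genotype; numbers in brackets tell probe sets of a gene apart. CFI lies at 4.33 and 4.65, against a highest of 1.79 in the other arrays, whereas the first C3 probe set lies at -1.96 in AA 2. These values are not quantile normalized.

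CFI encodes factor I, the protease that inactivates C3b and C4b when a cofactor is present. Its log2 value was 4.33 (AA 2) and 4.65 (AA 9), against a lowest of -1.93, a median of 0.14 and a highest of 1.79 in the other 26 arrays. The groups did not overlap, and the lower of both arrays was 5.81-fold above KA 5, the highest of the others. That margin was smaller after quantile normalization, where CFI was 2.05 (AA 2) and 2.91 (AA 9), against -2.04 to 1.62. By the mean of AA 2 and AA 9 minus the median of the others, 4.36 log2, the CFI probe set ranked 4 of 24016. CFI also varied widely among the 26 other glands, a measure that leaves out AA 2 and AA 9. Its SD there was 1.19, ranked 37 of 24016. No filter on dim probe sets was applied before this ranking, and the gene was chosen with earlier results of these arrays known.

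CFB encodes factor B, the protease precursor of the alternative pathway. It stood at 2.72 in both AA 2 and AA 9, against a median of 0.41 and a highest of 2.94 in the others, of which AA 1 was the lowest. KA 2 was higher still, so the groups overlapped by that 1 array, and the next, KK 4, reached 2.08. Among the AA cows alone both arrays lay above the other 9, the highest of which was 2.00.

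C3 is the protein on which all complement pathways converge, and its 3 probe sets did not follow CFI and CFB in AA 2 and AA 9. The first was -1.96 (AA 2) and 0.57 (AA 9), against -1.81 to 2.86 (median 0.62) elsewhere. AA 2 was thus the lowest of all 28 arrays there, just below AA 1. The second was 0.06 (AA 2) and 0.01 (AA 9), against -1.77 to 1.38 elsewhere. The third was -0.20 and 0.57, against -2.23 to 2.21. The probe sets are numbered in the order of the deposited table. In AA 2 those of C3 disagreed, -1.96 against 0.06 and -0.20, while in AA 1 all 3 were low, at -1.81, -1.77 and -2.23.

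C1S and C1R encode the C1 proteases, and both were raised in AA 2 and AA 9 relative to every other array. C1S was 1.38 (AA 2) and 2.12 (AA 9), against -1.29 to 0.76 (median 0.09). C1R was 1.31 (AA 2) and 2.04 (AA 9), against -0.96 to 0.55 (median 0.03). The lower of both arrays exceeded the highest other by 1.54-fold in C1S and by 1.69-fold in C1R. This did not hold after quantile normalization. C1S was then 0.42 (AA 2) and 0.80 (AA 9), against -1.02 to 0.92, and C1R 0.40 and 0.76, against -0.74 to 0.65.

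SERPING1 encodes C1 inhibitor, the serpin that traps these proteases, and its probe sets gave different pictures of AA 2. The first was 1.32 (AA 2) and 2.09 (AA 9), against -1.09 to 1.10 (median 0.01), with no overlap. The second was 0.62 (AA 2) and 3.10 (AA 9), against -0.76 to 2.00 (median 0.52). AA 2 was well inside the other arrays in that probe set, and AA 9 was above all of them.

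C1QA and C1QB encode the A and B chains of C1q, which tissue macrophages are known to make. C1QA was 0.90 (AA 2) and 2.72 (AA 9), against -0.72 to 1.41 (median -0.02), and KK 4 lay above AA 2. C1QB was 1.27 (AA 2) and 2.70 (AA 9), against -0.90 to 1.18, with KK 4 again the highest of the others. AA 2 cleared KK 4 by only 1.07-fold in C1QB. In both chains AA 9 was far above AA 2.

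Of 10 macrophage markers 7 were measured. Both AA 2 and AA 9 lay above the others in 3 of them, AIF1, TYROBP and CTSS, and below in 1, CD14. Of all 9155 genes, 21.1% lay above and 17.9% below. The list averaged 0.67 (AA 2) and 0.90 (AA 9), against -0.51 to 0.76 elsewhere. KK 4 held the 0.76. The part of these markers in the C1q values was not tested.

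C4A encodes complement component C4, the target of C1s. It was 0.47 (AA 2) and 0.26 (AA 9), against -1.18 to 1.63 (median 0.13), inside the range of the others. C4A lies near CFB in the RefSeq gene order of assembly ARS-UCD2.0, with 4 protein-coding genes between them, and CFB was at 2.72 in both arrays. C4B was not analysed here, and transcripts of near-identical C4 copies may bind the same probes, so the C4A values are uncertain in that respect.

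Beyond these 9 genes, a list of 40 other complement components, regulators and receptors had 31 measured genes. Averaged over its probe sets, a gene lay above the other 26 in both AA 2 and AA 9 in 4 cases, against 21.1% of all 9155 genes, and below in 8, against 17.9%. Those above were CD55, a membrane inhibitor of the C3 proteases, at 3.21 and 2.23 against -0.42 to 1.40, and CLU, the fluid inhibitor clusterin, at 2.33 and 3.15 against -2.17 to 2.26. VSIG4, a macrophage receptor for C3 fragments, stood at 2.28 and 1.17 against -0.65 to 0.34, and MASP2, a lectin pathway protease, at 0.17 and 0.16 against -0.22 to 0.15.

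Among those below was CD46, another membrane inhibitor, at -1.49 (AA 2) and -0.79 (AA 9), against -0.73 to 0.36. The others were MASP1 at -0.75 and -0.69 against -0.37 to 0.88, C8A at -0.60 and -0.68 against -0.40 to 0.47, and FCN1, a lectin pathway sensor, at -0.75 and -0.58 against -0.55 to 0.80. VTN was -0.66 and -0.52 against a lowest of -0.42, and CPN1 -0.51 and -0.47 against -0.42. COLEC11 was -0.31 and -0.27 against a lowest of -0.18, and CR2 -0.25 and -0.51 against -0.24, so these lay just outside. The inhibitors CD55 and CD46 thus lay on opposite sides of the other arrays, though CD46 in AA 9 was only just outside, at -0.79 against -0.73. C4BPA, a chain of the inhibitor C4b-binding protein, was 4.77 in AA 2 and 3.10 in AA 9, and KA 2, at 5.12, was higher than both.

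Leaving AA 2 and AA 9 aside, the complement genes spread more than most probe sets over the other 26 glands. Their SD ranged from 0.41 for C1R to 1.19 for CFI, and each of the 12 probe sets was at or above the 93.7 percentile of all 24016. Dim probe sets were not filtered out of the 24016, and the genes were chosen with earlier results of these arrays known. Individual cows were high or low across most of the genes. AA 1 was the lowest of the 26 in 8 of the 12 probe sets, below 0 in all of them, and averaged -1.10 over the 9 genes. KA 11, KA 7 and KA 8 followed at -0.68, -0.64 and -0.51.

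**Figure D2:**
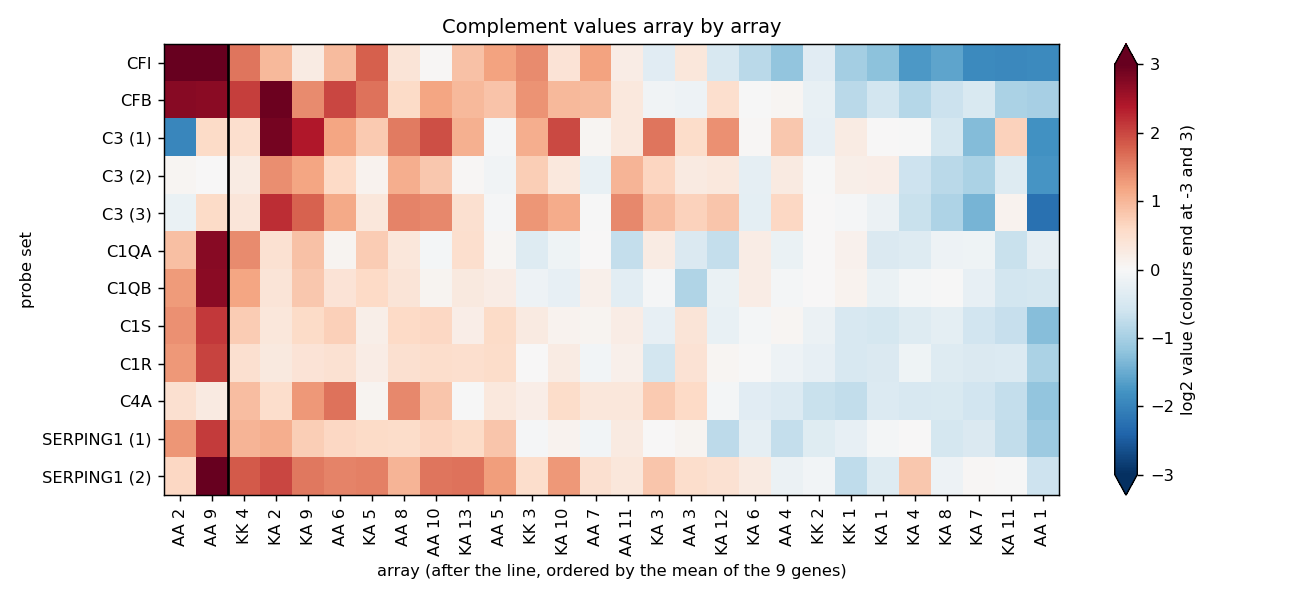
Log2 values of the 12 complement probe sets (rows) in each array (columns), with AA 2 and AA 9 left of the line and the other 26 ordered by the mean of the 9 genes. Red is above and blue below the baseline, and the order runs from KK 4 at 1.14 to AA 1 at -1.10.

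At the top of the 26 were cows of all genotypes. KK 4 averaged 1.14 over the 9 genes, KA 2 averaged 1.07, KA 9 averaged 0.95 and AA 6 averaged 0.92, and each was above 0 in all 12 probe sets. They differed in which genes led. KA 2 was the highest of the 26 in 6 probe sets, those of C3, CFB and SERPING1, with CFB at 2.94 and the first C3 probe set at 2.86. KK 4 was the highest in C1QA, C1QB and C1S, with C1QA at 1.41 against 0.45 in KA 2, while its first C3 probe set was only 0.49.

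The mammary acute phase and antimicrobial proteins measured, SAA3, HP, LTF, LPO and LBP, averaged 1.79 in KA 2, the highest of the 26, and 1.27 in KK 4, against -0.94 in AA 1, the lowest. B and plasma cell markers averaged 1.30 in KK 4 and 0.27 in KA 2. T cell markers averaged 0.64 and 0.06 in these cows. Neutrophil markers averaged 2.00 in KK 4 and 0.19 in KA 2, and the highest of the 26 was KA 5 at 3.45. KA 5 had CFI at 1.79 and CFB at 1.63 but C3 at only 0.78, 0.09 and 0.33. The part of these cells in the complement values was not tested.

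Over the 26 arrays the genes were high or low in the same cows, the C1q chains least so. All 36 pairs of genes, each averaged over its probe sets, correlated above 0, with a median Pearson r of 0.68 against 0.0064 over all pairs of the 9155 genes. In 17 pairs r was above 0.7, a value reached by 0.312% of all gene pairs. The comparison is not like for like. Dim probe sets were not filtered out of the 9155 genes, and the 9 were chosen with earlier results of these arrays known. Their probe sets also had an SD at or above the 93.7 percentile of all. These are descriptions over the same 26 cows, and no p is given. Within an array all genes share the tissue sample and the normalization. Marker means differed between the cows, that of neutrophils from -0.34 to 3.45. The part of tissue makeup in these correlations was not tested.

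The closest pair was C1R and C1S, which are next to each other in the RefSeq gene order. Their Pearson r was 0.93 and Spearman rho 0.91 (n = 26 arrays), and r was 0.90 without the 2 arrays farthest from the median. Each was the gene most like the other among 9154. C1QA and C1QB, which have C1QC and LOC112443416 between them in that order, had r = 0.89 and rho = 0.88, and r = 0.80 without the 2 farthest arrays. CFI and CFB had r = 0.85 and rho = 0.87, and 0.82 without the 2 farthest.

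**Figure D3:**
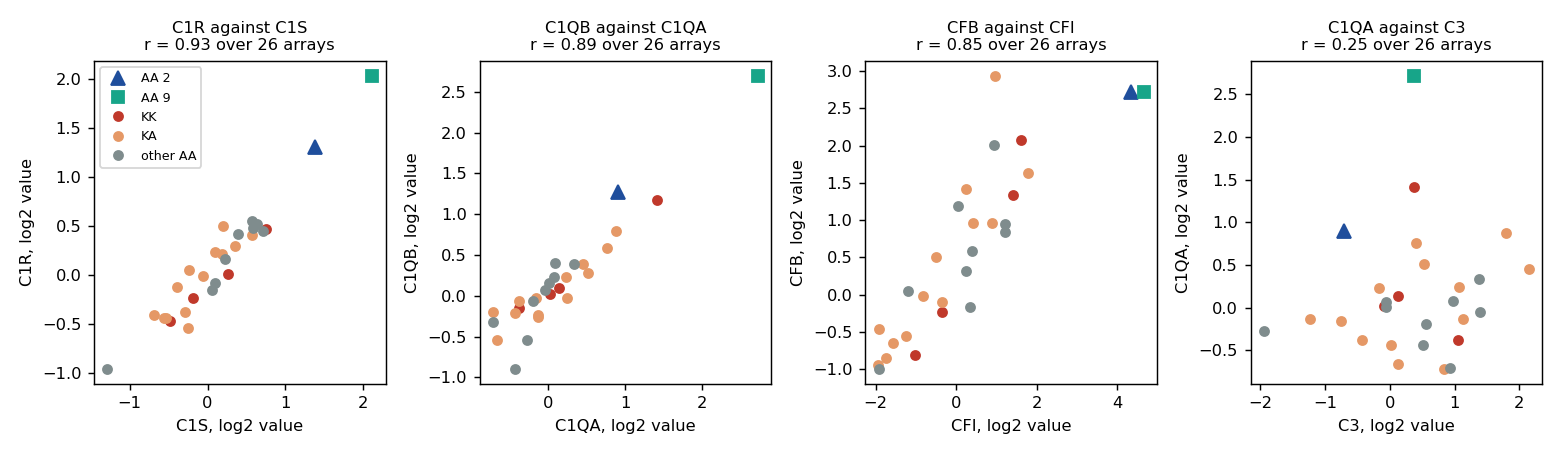
Log2 values of pairs of complement genes (each axis 1 gene, averaged over its probe sets), 1 point per array. C1R follows C1S (r = 0.93 over 26 arrays), C1QB follows C1QA and CFB follows CFI, while C1QA and C3 are only loosely related (r = 0.25).

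The C1q chains stood off from the rest. The median r between C1QA or C1QB and the 7 other genes was 0.51 over 14 pairs, against 0.76 over the 21 pairs among those 7. C3 and C1QA had the lowest value of all, r = 0.25 and rho = 0.26, and 0.17 without the 2 farthest arrays. C4A was closest to C1S (r = 0.85, rho = 0.86, and 0.82 without the 2 farthest). SERPING1 followed CFB (r = 0.85, rho = 0.82, and 0.80) and C1R (r = 0.84, rho = 0.81, and 0.87).

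**Figure D4:**
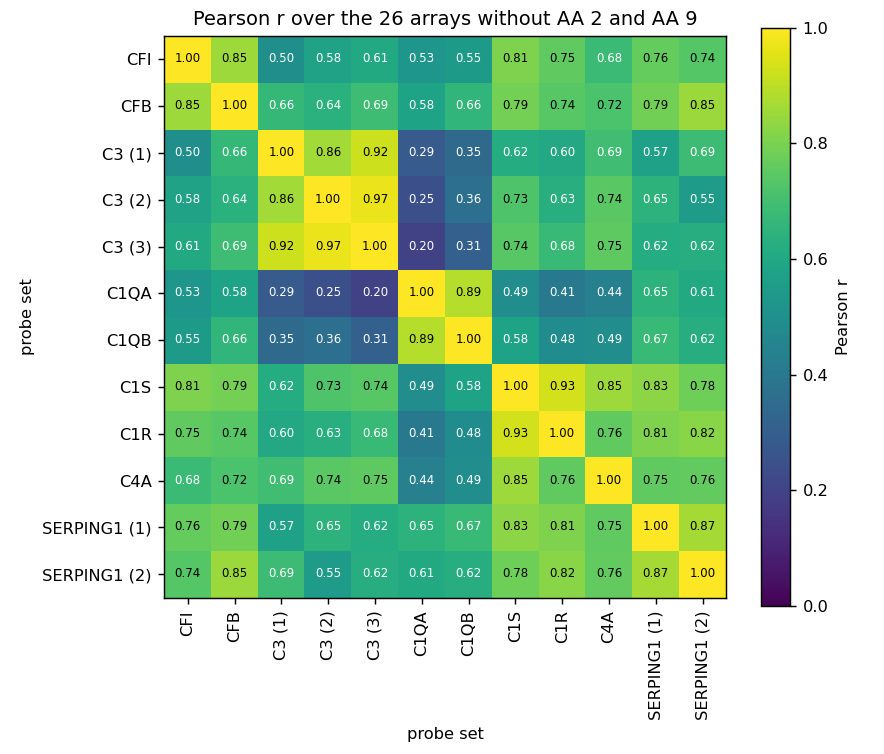
Pearson r between the 12 complement probe sets (both axes) over the 26 arrays without AA 2 and AA 9. The 3 C3 probe sets agree at 0.86 to 0.97 and the SERPING1 pair at 0.87, and the C1QA and C1QB rows are the least like C3.

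Probe sets of 1 gene tracked each other over these arrays, although they disagreed in AA 2. Those of C3 had r of 0.86, 0.92 and 0.97, and those of SERPING1 had 0.87. With AA 2 and AA 9 put back, r between CFI and C3 was 0.27 over 28 arrays, against 0.57 over 26 (rho = 0.49, and r = 0.51 without the 2 farthest). Between CFI and C1S it was 0.89, against 0.81 (rho = 0.79, and r = 0.77).

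By Pearson r over the 26 arrays, the genes most like each complement gene outside the 9 were as follows. CFI was most like S100A2, a calcium-binding protein (r = 0.92), and SAA3, an acute phase protein made in the mammary gland (r = 0.92). CFB was most like the lysosomal protease CTSC (r = 0.92) and SAA3 (r = 0.91). C3 was most like LTF, the iron-binding milk protein lactoferrin (r = 0.86), and SERPINB1, an inhibitor of neutrophil proteases (r = 0.84). C1QA and C1QB were most like C1QC, the third chain of C1q (r = 0.93 and 0.92), followed outside the complement genes by the Fc receptor gene FCGR1A for C1QA (r = 0.81) and the class II loading gene BOLA-DMB for C1QB (r = 0.85). The protease CTSH stood next to C1S (r = 0.92) and C1R (r = 0.87). SERPING1 was most like ZFP36L2, an RNA-binding protein (r = 0.88), and C4A after C1S was most like CAST, the calpain inhibitor (r = 0.80). SAA3 was 2.03 in AA 2 and 2.21 in AA 9, within the -2.87 to 2.62 of the others.

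Set against the marker lists, CFB followed the mean of the acute phase and antimicrobial proteins (r = 0.94, rho = 0.94, and 0.92 without the 2 farthest arrays). CFI followed that list (r = 0.84, rho = 0.86, and 0.84) and the luminal keratin and junction genes (r = 0.83, rho = 0.78, and 0.78). SERPING1 followed the acute phase list as well (r = 0.81, rho = 0.77, and 0.76). C3 followed the luminal list (r = 0.77, rho = 0.72, and 0.65). So did C1S (r = 0.79, rho = 0.745, and 0.72) and CFB (r = 0.75, rho = 0.78, and 0.72). C1R had r = 0.75 and rho = 0.71 with that list (0.665), and SERPING1 r = 0.73 and rho = 0.72 (0.69). In C4A these were 0.68 and 0.67 (0.60). C1QA followed the macrophage list (r = 0.72, rho = 0.64, but 0.52 without KK 4 and KA 5). Other genes followed the macrophage list as well. CFI had r = 0.80 and rho = 0.80 with it (0.75 without these arrays), and CFB r = 0.73 and rho = 0.78 (0.69). C3 had r = 0.52 and rho = 0.53 (0.72), C1S r = 0.65 and rho = 0.62 (0.67), and C4A r = 0.60 and rho = 0.68 (0.69). C1QB had r = 0.75 and rho = 0.67 (0.61), and SERPING1 r = 0.71 and rho = 0.69 (0.66). In C1R these were 0.57 and 0.46 (0.58). C1QA also had r = 0.69 and rho = 0.51 with the T cell list (0.44 without KK 4 and KA 5). With the neutrophil list it had r = 0.66 and rho = 0.52 (0.51). C1QA had r = 0.32 and rho = 0.38 with the luminal list (0.31 without the 2 farthest). With secretory epithelium, CFB had r = -0.64 and rho = -0.56 (-0.51), and C3 had r = -0.19 and rho = -0.14 (0.06). These relations hold values of the same 26 arrays and show no source of the transcripts.

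None of the complement genes differed by genotype past the adjusted threshold. In limma with all 28 arrays 0 of the 12 probe sets passed an adjusted p of 0.05 for any of the genotype differences or for the slope per K allele, as did 0.0% of all probe sets in each. Of the 12, 9 were lower in KK than in AA (median difference -0.33 log2, against 0.01 over all probe sets) and 11 were lower in KA than in AA (median -0.32, against 0.02), where 47.8% and 45.5% of all probe sets were lower. AA 2 and AA 9 are both AA cows. Without them 7 of the 12 were lower in KK than in AA and 8 were lower in KA than in AA. Of all probe sets, 51.8% and 53% were then higher. The medians were -0.07 for KK minus AA and -0.14 for KA minus AA, against 0.005 and 0.008 over all probe sets. The 12 probe sets were correlated over the same cows, so these counts are not of independent values.

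CFI had the largest difference of the 12 between KA and AA. It was -1.93 at the lowest, -0.49 at the median and 1.79 at the highest in KA, against -1.91, 0.39 and 4.65 in AA. In KK it was -1.02, -0.35, 1.41 and 1.60. The genotypes overlapped almost wholly. KA was lower than AA by a log2 difference of -1.37 (SE 0.61, limma unadjusted p = 0.0324, adjusted p = 0.205), and by -0.58 (SE 0.47, adjusted p = 0.735) without AA 2 and AA 9. KK minus AA was -0.52 (SE 0.87, adjusted p = 0.924), and 0.27 (SE 0.65) without these arrays, so the sign turned. Without KK 4 as well it was -0.13 (SE 0.71).

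C1S and C1R, like CFI, had lower means in KA than in AA. C1S ranged over -0.69 to 0.57 (median -0.23) in KA, against -1.29 to 2.12 (median 0.57) in AA, and it was -0.48, -0.18, 0.26 and 0.76 in KK. The KA minus AA difference was -0.62 (SE 0.24, limma unadjusted p = 0.0155, adjusted p = 0.172), and -0.34 (SE 0.20, adjusted p = 0.619) without AA 2 and AA 9. Without AA 1, the lowest AA cow, it was -0.80 and passed the adjustment (adjusted p = 0.0432), and 525 of all probe sets then passed, against 0 with all arrays. For C1R the KA minus AA difference was -0.48 (SE 0.22, limma unadjusted p = 0.0385, adjusted p = 0.213), and -0.20 (SE 0.17) without AA 2 and AA 9.

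**Figure D5:**
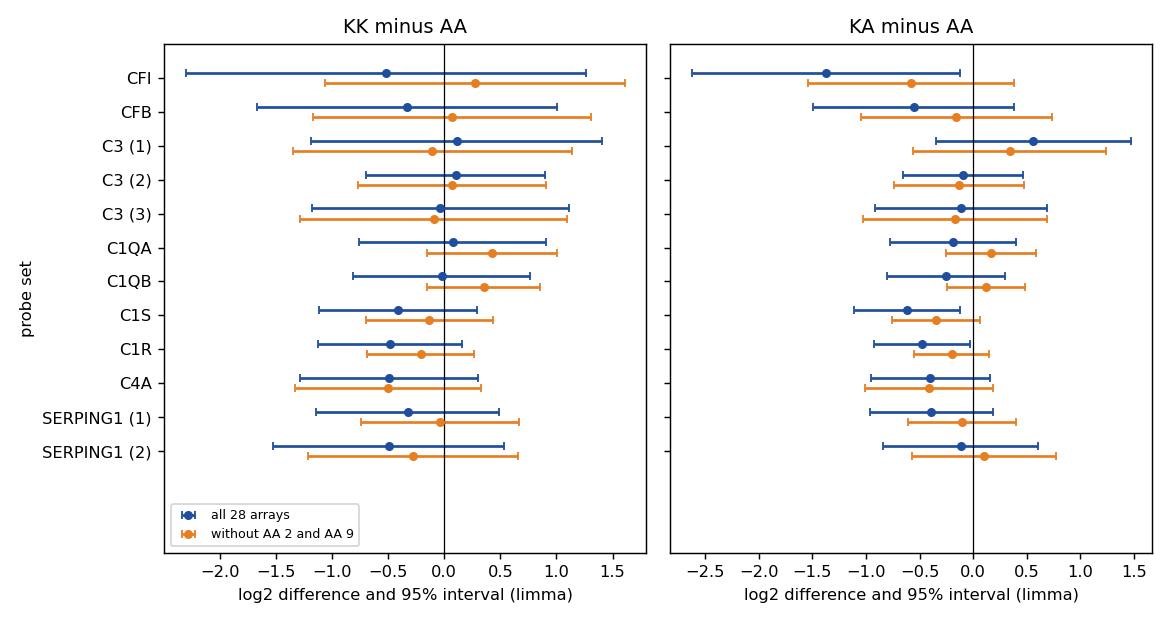
Genotype differences of the 12 complement probe sets in log2 (x axis) with limma 95% intervals, for KK minus AA (left) and KA minus AA (right), in blue over all 28 arrays and in orange with AA 2 and AA 9 left out. The CFI difference between KA and AA moves from -1.37 to -0.58 when these arrays are left out.

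At an unadjusted limma p under 0.05, 3 of the 12 probe sets were called for KA minus AA (CFI, C1S and C1R, all lower), against 21.8% of all probe sets and 11.1% called lower. For KK minus AA 0 were called, against 3.51%. KK minus KA had 0, against 2.84%, and the slope 0, against 9.16%. Without AA 2 and AA 9 each comparison called 0 of the 12, against 9.5% for KA minus AA, 2.76% for KK minus AA, 6.08% for KK minus KA and 3.26% for the slope.

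The other genes also did not pass the adjusted threshold. CFB was 0.60 ± 1.34 in KK (SD, n = 4), 0.37 ± 1.16 in KA (SD, n = 13) and 0.93 ± 1.18 in AA (SD, n = 11). The third C3 probe set was 0.41 ± 0.63 in KK, 0.33 ± 1.04 in KA and 0.45 ± 1.08 in AA, with the same n. C1QA was 0.30 ± 0.78 in KK, 0.03 ± 0.52 in KA and 0.22 ± 0.93 in AA. C4A was -0.07 ± 0.78 in KK, 0.02 ± 0.61 in KA and 0.42 ± 0.78 in AA, and its KK minus AA difference was -0.49 (SE 0.39, limma adjusted p = 0.909). C4A kept about that size without AA 2 and AA 9, at -0.50 (SE 0.41) for KK minus AA and -0.41 (SE 0.29) for KA minus AA, against -0.40 (SE 0.27) over all arrays. The first SERPING1 probe set was 0.09 ± 0.63 in KK, 0.02 ± 0.58 in KA and 0.41 ± 0.89 in AA. The second was 0.38 ± 1.11 in KK, 0.76 ± 0.78 in KA and 0.88 ± 1.00 in AA. The 95% interval of the KK minus AA difference ran from -1.67 to 1.00 in CFB and from -1.18 to 1.11 in the third C3 probe set, and both hold differences of 2-fold in either direction.

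In C1QA the higher KK mean came from KK 4. KK minus AA was 0.43 (SE 0.28) without AA 2 and AA 9 and 0.05 (SE 0.27) without KK 4 as well, while the other KK cows were at 0.14, 0.02 and -0.38. C1QB moved likewise, 0.35 (SE 0.24) and 0.05 (SE 0.24).

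Array numbers 29 to 42 held 4 KK, 2 KA and 8 AA arrays, and numbers 43 to 56 held 0 KK, 11 KA and 3 AA arrays. Whether the numbers mark batches is not stated in the labels. Within the lower numbers CFI was lower in KA than in AA by a difference of -0.80 (-0.28 without AA 2), and within the upper numbers by -2.14 (-0.63 without AA 9). For C1S these were -0.40 (-0.25) and -1.12 (-0.56). KK minus AA within the lower numbers was -0.25 for CFI (0.27 without AA 2) and -0.22 for C1S (-0.07). For KA minus AA, CFB, C3 and SERPING1 turned sign between the ranges in each of their probe sets. CFB was 0.45 within the lower and -1.18 within the upper numbers. The C3 probe sets were 1.39, 0.77 and 0.84 within the lower numbers and -0.21, -0.65 and -0.94 within the upper. Those of SERPING1 were 0.33 and 0.24, then -1.07 and -0.93. Without AA 9, which leaves 2 AA arrays in the upper range, CFB was -0.52 there. The C3 probe sets were then -0.39, -0.95 and -1.24, and those of SERPING1 -0.53 and -0.22. The lower range rests on 2 KA cows, KA 1 and KA 2. KA 2 was the highest of the 26 arrays in these 6 probe sets. In KA 1 CFB was -0.55, against a mean of 0.75 in the 8 AA arrays of that range. The C3 probe sets were 0.01, 0.20 and -0.17 in KA 1, against 0.04, 0.03 and 0.18. Those of SERPING1 were -0.05 and -0.38 in KA 1, against 0.19 and 0.58.

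In the list of 31 other complement genes, 0 passed an adjusted p of 0.05 in any of the comparisons (limma on gene means). At an unadjusted p under 0.05, KA minus AA called 6 higher and 3 lower, KK minus AA 1 higher, the slope 2 higher and 1 lower, and KK minus KA 0. Of all genes, 21.1%, 3.48%, 9.59% and 2.21% were called in that order. The smallest slope p were those of C6, a membrane attack protein, at -0.23 log2 per K allele (SE 0.10, limma unadjusted p = 0.0217), CD46 at 0.22 (SE 0.09, p = 0.0223 in limma) and FCN1 at 0.20 (SE 0.09, p = 0.0277 in limma). C4BPB, VSIG4 and C8G followed, at 0.10, -0.29 and 0.12. Without AA 2 and AA 9 the slope was -0.18 in C6 (limma unadjusted p = 0.0296), 0.10 in CD46 (limma p = 0.0916) and 0.13 in FCN1 (limma p = 0.118). It was then -0.08 in VSIG4, and 0.08 in both C4BPB and C8G. The adjusted p of C6, CD46 and FCN1 was 0.504 in limma.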

How the data were processed

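Mammary biopsies of 28 cows were measured on 1 array each. The deposited table holds log2 values, per the labels' protocols made in R 2.13 with Bioconductor 2.7. RMA and GCRMA are both named per the submitters' processing notes; which of them gave these values, and the baseline taken off each probe set, are not given in the sources used here. Of 24128 probe sets, 112 controls were left out. The platform annotation gave 1 symbol to 13292 of the others, several to 86 and none to 10638, and 13263 were found in RefSeq by gene identifier. Background brightness is not in the table, so no filter on dim probe sets was applied.

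Genotypes were compared with limma 3.58.1 in R 4.3.3, with 1 mean per genotype or a slope per K allele, over 24016 probe sets with Benjamini-Hochberg adjustment. The step was tested on simulated data with independent normal noise and, for each probe set, the same SD in all arrays. Those data lacked the wider spread of AA 2 and AA 9 and the correlation between probe sets. Replicates are separate cows, numbered in accession order. Every complement probe set is described. Of the other complement genes, those with both AA 2 and AA 9 outside the other 26 arrays and up to 6 with the smallest slope p were to be named, and C4BPA was added after its values were seen. The most like genes are the 3 of highest Pearson r. Marker lists covered macrophages, fibroblasts, secretory and luminal epithelium, endothelium, T cells, B and plasma cells, neutrophils, acute phase proteins, interferon response and hepatocytes. Members and lists were chosen with earlier results of these data known. Alternatives were quantile normalization, centring, array weights, a robust prior, array number as a block, gene means, a threshold of 0.10, and leaving out arrays.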

Additional observations from a re-analysis of the deposited data

How the results depend on the processing

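No paired analysis was possible because replicate numbers only name cows in accession order. The number of probe sets past the adjusted threshold for KA minus AA, 0 with all arrays, was 12 at a threshold of 0.10, 104 with array weights and 47 after quantile normalization, and 0 to 525 when 1 array was left out. It was 525 without AA 1, 5 without KA 5, 5 without KK 3, 1 without AA 7 and 1 without KA 9. KK minus KA called 3 with array weights. The count of complement probe sets with AA 2 and AA 9 outside the others was 1 after quantile normalization, against 5. The cause was not tested. Of 48 genotype differences of complement probe sets, 25 changed sign under some alternative, 10 of them without AA 2 and AA 9, and 1 value passed the adjusted threshold (C1S without AA 1).

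Without AA 2 and AA 9, the sign turned for KA minus AA in C1QA (0.17), C1QB (0.12) and the second SERPING1 probe set (0.10). It turned for KK minus AA in C1QB (0.35), CFI (0.27), CFB (0.0674) and the first C3 probe set (-0.11), and for the slope in C1QA (0.20), C1QB (0.16) and the second C3 probe set (-0.0001). With KK 4 left out too, an alternative chosen after seeing the data, KK minus AA was 0.054 in C1QB and -0.14 in the first C3 probe set. With array weights, KA minus AA turned in C1QA (0.0485) and C1QB (0.022), KK minus KA in C1R (0.0274), and KK minus AA in C1QB (0.34), CFI (0.0421) and the first and second C3 probe sets (-0.45 and -0.14). The slope turned in C1QA (0.18), C1QB (0.14) and the same C3 probe sets (-0.15 and -0.11). After quantile normalization, KA minus AA turned in C1QA (0.0124), KK minus AA in C1QB (0.15) and the first C3 probe set (-0.0907), and the slope in C1QA (0.0757), C1QB (0.05) and the second C3 probe set (-0.0298). With array number as a block, KK minus AA turned in C1QB (0.0812) and C3 probe set 3 (0.0173), and KK minus KA in C1R (0.31) and the second SERPING1 probe set (0.12).

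Leaving out 1 array at a time, KK minus AA spanned 0, at -0.30 to 0.32 in C1QA, -0.32 to 0.22 in C1QB, -0.12 to 0.33 in C3 (1), -0.0934 to 0.20 in C3 (2), -0.34 to 0.11 in C3 (3) and -0.83 to 0.14 in CFB. KA minus AA spanned 0, at -0.28 to 0.0627 in C1QA, -0.38 to 0.0302 in C3 (3) and -0.27 to 0.10 in SERPING1 (2). KK minus KA spanned 0, at -0.11 to 0.49 in C1QA, -0.0642 to 0.38 in C1QB, -0.19 to 0.13 in C1R, -0.0113 to 0.40 in C1S, -0.22 to 0.24 in C3 (3), -0.42 to 0.13 in C4A, -0.27 to 0.69 in CFB, -0.24 to 0.22 in SERPING1 (1) and -0.87 to 0.0017 in SERPING1 (2). The slope per K allele spanned 0, at -0.16 to 0.14 in C1QA, -0.19 to 0.0803 in C1QB, -0.10 to 0.0737 in C3 (2) and -0.20 to 0.0239 in C3 (3).
Precision is limited by 4 KK cows and 1 array per cow.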

Other observations

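Over the 26 arrays the mean of the interferon response genes measured had r = 0.27 and rho = 0.52 with C1QB (r = 0.38 without KA 8 and KK 4) and r = 0.23 and rho = 0.40 with C1QA (0.34). With CFB it had r = -0.08 and rho = 0.10 (0.04), and with C3 r = -0.27 and rho = -0.20 (-0.09). Their mean was 0.61 (AA 2) and 0.53 (AA 9), against -0.36 to 2.36 elsewhere, with KA 8 the highest. KA 8 had all 12 complement probe sets below 0. Endothelial markers averaged -0.24 (AA 2) and 0.30 (AA 9), against -0.11 to 0.44 elsewhere. The neutrophil marker mean was 1.94 for AA 2 and 0.45 for AA 9, both within the other arrays (-0.34 to 3.45). For B and plasma cell markers it was 0.82 and 0.62, likewise inside (-0.85 to 1.30). The other arrays spanned -0.35 to 0.64 in T cell markers. AA 2, at 0.56, lay inside that span, and AA 9, at 0.99, lay above it. The 6 hepatocyte genes averaged 0.63 (AA 2) and 0.96 (AA 9), against -0.45 to 0.43 elsewhere. APOA1 and TTR were above all other arrays there while AHSG was below, against 21.1% and 17.9% of all 9155 genes.

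C1QC, the remaining chain of C1q, was 0.51 (AA 2) and 2.68 (AA 9), against -0.54 to 1.37 elsewhere, with KK 4 the highest of these, as in C1QA and C1QB.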
